A study of Mus musculus with 10 samples.

Results

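The genes described here are 10 that carry cholesterol out of the hepatocyte, move it between lipoproteins in plasma, or store and move it inside the cell. They were chosen by symbol from the 24421 genes listed, and all 10 were found: the exporters Abca1, Abcg1, Abcg5 and Abcg8, the receptor and plasma remodelling genes Scarb1, Lcat, Lipc and Pltp, and the intracellular genes Soat2 and Stard4. Hepatic mRNA was sequenced from 10 wild-type male C57BL/6 mice (C57BL/6 J in the study's methods), 21 weeks old by the labels and fed ad libitum. The Chow group (n = 5) ate standard chow, and the TM5614 group (n = 5) ate the same chow with TM5614, an oral small molecule inhibitor of plasminogen activator inhibitor 1 (PAI-1), mixed in to give 20 mg/kg/day over 10 days. Each mouse gave 1 library of poly(A) RNA from liver, flash frozen by the labels, where the study's methods describe a portion kept in RNAlater, so hepatocytes and all other liver cells were read together.

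Cholesterol leaves a hepatocyte into plasma or into bile. ABCA1, with ABCG1 in macrophages and other cells, loads it onto high-density lipoprotein (HDL), and the ABCG5/ABCG8 heterodimer pumps sterols into bile. In plasma LCAT esterifies HDL cholesterol, PLTP and hepatic lipase (Lipc) remodel the particle, and the receptor SR-BI (Scarb1) returns its cholesteryl ester to the liver. Inside the hepatocyte ACAT2 (Soat2) esterifies cholesterol for storage and secretion, and STARD4 carries free cholesterol between membranes. Liver X receptor (LXR) induces the 4 exporters when oxysterols rise, and SREBP2 induces sterol synthesis genes, with Stard4 among them, when membrane sterol falls.

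Stard4 fell by 63.0% and Soat2 fell by 35.2% in TM5614 livers, and they were the 2 of 10 genes past the threshold, an adjusted p under 0.05 by edgeR's quasi-likelihood test (Benjamini-Hochberg over all 11092 tested genes). Across all those genes 4.50% passed, 1.73% higher and 2.77% lower in TM5614. An unadjusted p under 0.05 was found for 4 of the 10 genes (Lcat and Pltp besides those 2) against 20.4% of all genes tested. The 10 genes had a median log2 fold change of -0.26, with 3 estimates above 0 and 7 below, and the median over all genes tested was 0.01. None of the exporters and none of the plasma remodelling genes passed the threshold in this edgeR fit of all 10 libraries. Soat2 and Stard4 also passed, and no other of the 10 genes did, without Chow replicate 2 and without TM5614 replicate 2, and none of the 10 passed without TM5614 replicate 3.

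The libraries held between 6398335 and 10874955 counts, and each gene is given below in CPM, its counts over the library total, on the CPM scale, after scaling the libraries to each other. Counting error was widest for Abcg1, with 29 to 68 counts a library, and the other genes had at least 111. Chow replicate 2 stood apart. A trend with GC content and gene length accounted for 46.0% of the variation of its genes around the median of the 10 libraries, against 0.763% to 11.5% in the other 9 libraries. That trend put Stard4 at -0.72 and Abca1 at -0.68 in Chow replicate 2 on the log2 scale, and put Lcat at 0.80, Pltp at 0.61 and Soat2 at 0.51. TM5614 replicate 2 held 3641 CPM of 8 skeletal muscle markers, where the other TM5614 libraries held 1.29 to 63.8 CPM and the Chow libraries 0.644 to 1.25. Values without 1 or both of these libraries are given below for some of the genes and ratios. Hepatocyte markers were high in every library, 115222 to 127894 CPM over 9 genes in Chow and 98502 to 115552 CPM in TM5614, and none of the 9 passed the threshold.

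**Figure D1:**
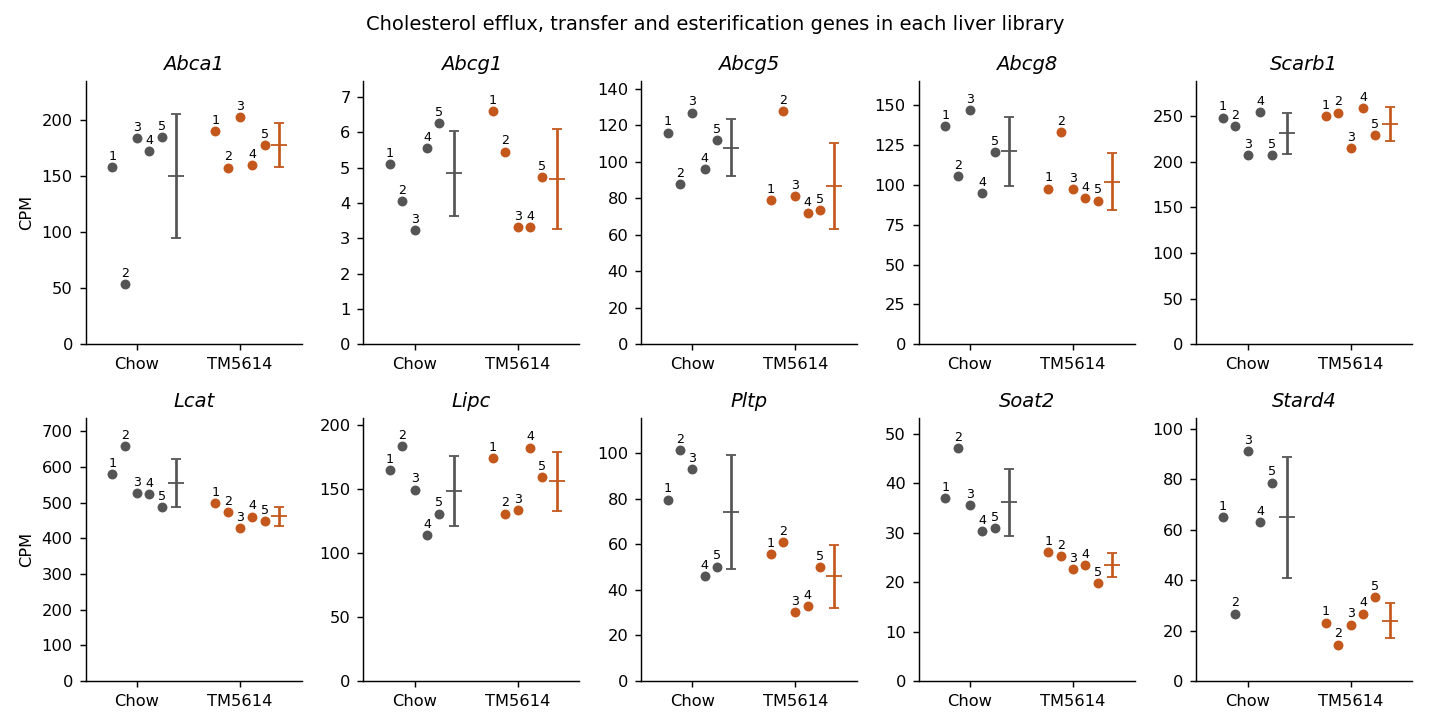
CPM of the 10 genes in each library, with the replicate number above each point and the group mean ± SD (n = 5) beside the points. Every TM5614 library lay below every Chow library for Soat2, Chow replicate 2 lay far below the other Chow libraries for Abca1 and Stard4, and TM5614 replicate 2 lay above the other TM5614 libraries for Abcg5 and Abcg8.

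Stard4 (ENSMUSG00000024378, GRCm38 chr18:33199355-33213862, minus strand) encodes the START-domain carrier of free cholesterol. Its levels were 64.9, 26.7, 91.1, 62.9 and 78.7 CPM in Chow replicates 1 to 5 and 23.1, 14.4, 22.4, 26.7 and 33.3 CPM in TM5614 replicates 1 to 5. Of the Chow libraries 4 lay well above every TM5614 library, and Chow replicate 2 lay within the TM5614 range. The means were 64.9 ± 24.2 CPM (SD, n = 5) and 23.98 ± 6.87 CPM (SD, n = 5). The log2 fold change was -1.43 (SE 0.30, 95% interval -2.07 to -0.79, edgeR adjusted p = 0.0173). Without Chow replicate 2 it was -1.64 (adjusted p = 0.000334), and with the GC and length trend taken out of every library it was -1.56 (adjusted p = 0.00114). Without TM5614 replicate 3 the adjusted p was 0.0586, at a log2 fold change of -1.41.

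Soat2 (ENSMUSG00000023045, GRCm38 chr15:102150526-102163469, plus strand) encodes ACAT2, the cholesterol esterifying enzyme of hepatocytes. Chow replicates 1 to 5 held 37.0, 47.1, 35.6, 30.3 and 30.9 CPM, and TM5614 replicates 1 to 5 held 26.1, 25.3, 22.7, 23.4 and 19.8 CPM. The groups did not overlap, and Soat2 was the 1 gene of the 10 of which this held, against 8.93% of all genes tested in either direction. The means were 36.2 ± 6.75 CPM (SD, n = 5) in Chow and 23.5 ± 2.47 CPM (SD, n = 5) in TM5614, a log2 fold change of -0.63 (SE 0.14, 95% interval -0.93 to -0.32, edgeR adjusted p = 0.0262). Chow replicate 2 was the highest library, and without it the log2 fold change was -0.52 (adjusted p = 0.00723). With the GC and length trend removed the log2 fold change was -0.47 (adjusted p = 0.0123). Leaving out Chow replicate 1 or 3, or TM5614 replicate 3, 4 or 5, raised the adjusted p to between 0.0516 and 0.0830 at log2 fold changes of -0.57 to -0.63.

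The counts of Soat2 and Stard4 were also compared within each library, where scaling between libraries plays no part. Soat2 had 0.391 to 0.570 counts for each Stard4 count in 4 Chow libraries, 1.76 in Chow replicate 2, and 0.596 to 1.75 in the TM5614 libraries. The mean log2 ratio was 0.76 higher in TM5614 (95% interval -0.34 to 1.86), which did not exceed the spread between libraries (p = 0.159 by an exact two-sided permutation of the libraries, adjusted p = 0.238 over 6 pairs). Without Chow replicate 2 the difference was 1.16 (adjusted p = 0.0952), and without TM5614 replicate 2 it was 0.57 (adjusted p = 0.294). The different sizes of their falls were not separated by this test in any of these fits.

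Markers of other liver cells were summed beside these values, since in whole liver fewer cells of a type and less RNA per cell cannot be told apart. The 9 hepatocyte markers had a median log2 fold change of -0.34, with 6 estimates below 0 and 0 of 9 past the threshold. Among 11 Kupffer cell markers all 11 estimates were below 0, with a median of -0.40 and none past the threshold. All 8 stellate markers had estimates above 0, with a median of 0.32 and none past the threshold. Of 8 endothelial markers 5 estimates were above 0 and 3 below, with a median of 0.07. The 3 cholangiocyte markers tested had estimates above 0, with a median of 0.27. None of these passed the threshold. Summed stellate markers ranged from 159 to 284 CPM in Chow and 257 to 550 CPM in TM5614, the highest being TM5614 replicate 2, where Des, which skeletal muscle also expresses, made up 258 CPM. The part of cell composition in the falls of Stard4 and Soat2 was not tested.

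**Figure D2:**
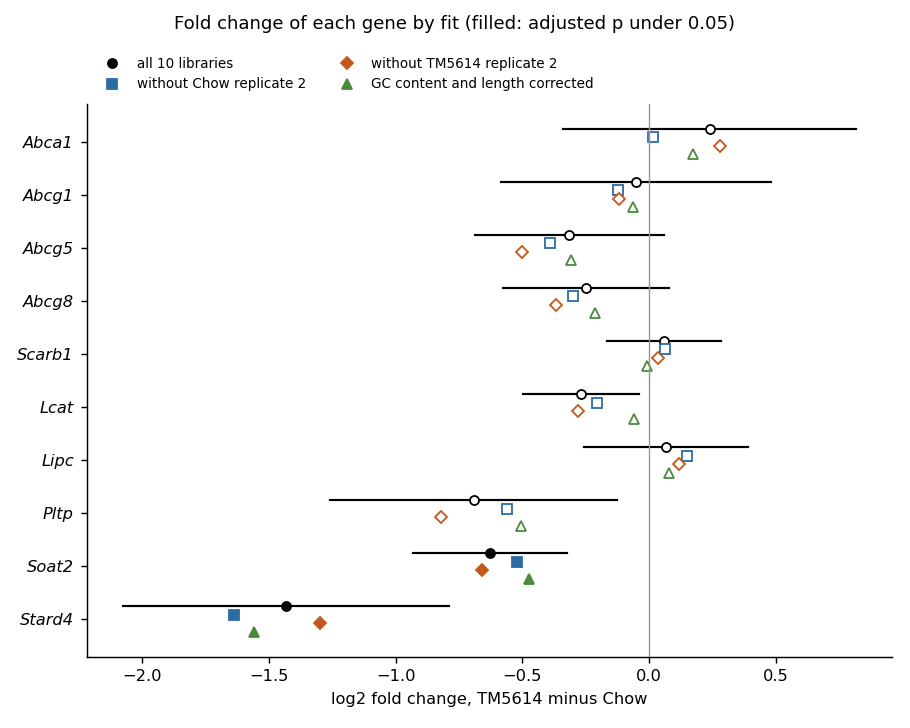
log2 fold change of each gene (TM5614 minus Chow, edgeR) with all 10 libraries (black, with 95% interval), without Chow replicate 2, without TM5614 replicate 2, and with the GC and length trend removed. Filled symbols, at Soat2 and Stard4 in all 4 fits, mark an adjusted p under 0.05, and the Abca1 estimate moved from 0.24 to 0.02 without Chow replicate 2.

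The sterol exporters of bile are encoded head to head. Abcg5 (ENSMUSG00000040505, GRCm38 chr17:84658234-84683011, minus strand) and Abcg8 (ENSMUSG00000024254, GRCm38 chr17:84676302-84700333, plus strand) have RefSeq start sites 110 bases apart, at 84683011 and 84683121, and share the sequence between them. Their promoter windows, 250 bases before to 50 after each start site, have 209 bases in common. They are printed because, of the 6 pairs compared, the count ratio of these 2 genes varied least between the livers. A shared control of the 2 genes was not tested. RefSeq lists a second Abcg8 start site at 84676302, the gene start given above, and the window of that site is not printed. The Abcg5 window is chr17:84682962-84683261 on the minus strand and the Abcg8 window is chr17:84682871-84683170 on the plus strand (RefSeq, GRCm38.p6), each read 5′ to 3′ along its own gene, with CCAAT matches on either strand in capitals.
Abcg5: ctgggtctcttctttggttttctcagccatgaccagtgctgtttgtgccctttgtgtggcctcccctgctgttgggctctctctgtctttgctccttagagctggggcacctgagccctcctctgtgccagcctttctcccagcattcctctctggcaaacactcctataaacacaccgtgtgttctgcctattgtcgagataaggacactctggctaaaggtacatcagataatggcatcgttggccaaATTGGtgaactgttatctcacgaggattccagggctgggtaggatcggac
Abcg8: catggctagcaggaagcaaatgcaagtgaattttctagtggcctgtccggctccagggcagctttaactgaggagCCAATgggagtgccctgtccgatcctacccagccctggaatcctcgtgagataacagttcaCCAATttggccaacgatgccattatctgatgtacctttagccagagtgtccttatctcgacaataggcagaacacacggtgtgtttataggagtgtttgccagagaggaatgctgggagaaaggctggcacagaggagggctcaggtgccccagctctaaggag

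The CCAAT match nearest the Abcg8 start site, 114 bases before it, is the same 5 bases as the match at the Abcg5 start site. CCAAT was present on either strand in 37.4% of the 32851 RefSeq promoter windows of this length that were searched. No match was found in either window for the nuclear receptor element AGGTCA, held by 16.3% of the windows searched. None was found for 2 of these elements in direct repeat, with 4 bases between them and at most 2 mismatches in 12 bases (3.02%). LXR is known to bind such repeats, and repeats with more mismatches were not searched for. The sterol element TCACNCCAC (1.24%), the E-box CACGTG (7.15%) and the GC box GGGCGG (35.7%) had no match either. Windows of 6 of the 10 genes were searched. None of Abcg1, Scarb1, Soat2 or Stard4 was among them, so no element was looked for in those genes. The windows searched left out chr18, where Stard4 lies. Abca1 held 1 E-box, 147 bases before its start site, and 2 GC boxes. Pltp held 1 CCAAT and 1 GC box, Lcat 1 CCAAT, and the more upstream of 2 Lipc windows 3 CCAAT. The other Lipc window held 2 AGGTCA elements, 1 CCAAT and 1 GC box, and the second Abcg8 window held no match. None of these windows held the sterol element, or the direct repeat within 2 mismatches. That limit can miss a weaker repeat, so the search does not show that the Abca1 promoter lacks an LXR element. These are matches of letters, with no measure of binding.

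Abcg5 was at 116, 87.8, 127, 95.9 and 112 CPM in Chow replicates 1 to 5 and at 79.0, 128, 81.1, 71.8 and 73.5 CPM in TM5614 replicates 1 to 5. In TM5614, 4 libraries lay below every Chow library and replicate 2 lay above every Chow library. The log2 fold change was -0.31 (SE 0.17, 95% interval -0.69 to 0.06, edgeR adjusted p = 0.323). Abcg8 was at 137, 106, 147, 94.9 and 121 CPM in Chow and at 97.6, 133, 97.4, 91.9 and 90.2 CPM in TM5614. Here too TM5614 replicate 2 was the highest of its group, and the other 4 libraries lay at or near the lowest Chow values. Its log2 fold change was -0.25 (SE 0.15, 95% interval -0.57 to 0.08, edgeR adjusted p = 0.374).

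Neither gene passed the threshold in the edgeR fit with all libraries, and both estimates grew when libraries that stood apart were left out. Without TM5614 replicate 2, the library with the muscle markers, Abcg5 was at -0.50 (edgeR adjusted p = 0.0618) and Abcg8 at -0.36 (adjusted p = 0.187). With both libraries numbered 2 left out, Abcg5 was at -0.57 (adjusted p = 0.00274) and Abcg8 at -0.41 (adjusted p = 0.0437), so that 4 of the 10 genes passed, in a fit where 1230 genes passed instead of 499. limma-voom with sample quality weights gave Abcg5 -0.49 (adjusted p = 0.0207) and Abcg8 -0.36 (adjusted p = 0.0752). The part of the muscle RNA in the high Abcg5 and Abcg8 of TM5614 replicate 2 was not tested.

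The log2 ratio of these 2 transporter genes had the smallest SD of the 6 pairs compared, 0.12 in Chow and 0.11 in TM5614 (n = 5 each). For Lcat to Lipc the SDs were 0.16 and 0.20. Abcg5 had 0.781 to 1.01 counts for each Abcg8 count over the 10 libraries, 0.830 to 1.01 in Chow and 0.781 to 0.958 in TM5614. The mean log2 ratio was 0.09 lower in TM5614, with a 95% interval of the difference from -0.26 to 0.07, and the exact two-sided permutation test gave p = 0.222 (adjusted p = 0.267 over 6 pairs). Without TM5614 replicate 2 the difference was -0.14 (adjusted p = 0.0595). The ratio in TM5614 replicate 2, 0.958, was the highest of its group. The annotated genes overlap over 6710 bases on opposite strands, and the use of strand in the counting is not given in the sources used here, so reads from the shared stretch could have gone to either gene.

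**Figure D3:**
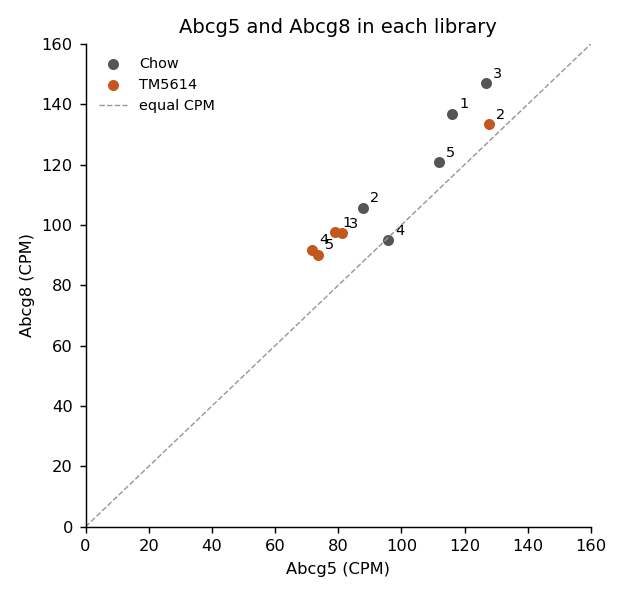
Abcg8 against Abcg5 in each library, in CPM, with the replicate number beside each point and a dashed line of equal CPM. The libraries lie near 1 line, with TM5614 replicates 1, 3, 4 and 5 at its lower end and TM5614 replicate 2 among the highest Chow libraries.

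Abca1 (ENSMUSG00000015243, GRCm38 chr4:53030787-53159895, minus strand) encodes the exporter that lipidates apolipoprotein A-I. It was at 158, 53.3, 184, 172 and 185 CPM in Chow replicates 1 to 5 and at 190.0, 157, 202, 159.6 and 178 CPM in TM5614 replicates 1 to 5. Chow replicate 2 lay far below the other 9 libraries, which overlapped between the groups. With all libraries the log2 fold change was 0.24 (SE 0.27, 95% interval -0.34 to 0.82, edgeR adjusted p = 0.628), and without Chow replicate 2 it was 0.02 (adjusted p = 0.943). A difference in Abca1 was not detectable with these libraries.

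Abcg1 (ENSMUSG00000024030, GRCm38 chr17:31057675-31117988, plus strand), the exporter best known from macrophages, had the fewest reads. Chow replicates 1 to 5 were at 5.09, 4.05, 3.24, 5.55 and 6.26 CPM and TM5614 replicates 1 to 5 at 6.61, 5.45, 3.33, 3.31 and 4.72 CPM. The groups overlapped almost entirely, with a log2 fold change of -0.05 (SE 0.25, 95% interval -0.58 to 0.48, edgeR adjusted p = 0.924). Kupffer markers summed over 11 genes ranged from 84.7 to 271 CPM in Chow and from 85.2 to 181 CPM in TM5614, the highest being Chow replicate 2. The part of macrophage content in the Abcg1 level was not tested.

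Abca1 was set against the other exporters within each library. The Abca1 to Abcg5 log2 ratio was 0.70 higher in TM5614 (95% interval -0.09 to 1.48, exact two-sided permutation p = 0.0556, adjusted p = 0.111), which did not pass the threshold. Abca1 counts were 0.608 to 1.79 times the Abcg5 counts in Chow and 1.23 to 2.50 times in TM5614, where the lowest ratio of Chow was that of replicate 2, and without that library the log2 difference was 0.43 (adjusted p = 0.179). The Abca1 to Abcg1 log2 ratio differed by 0.42 (95% interval -0.49 to 1.33, exact permutation p = 0.357, adjusted p = 0.357). That difference was 0.13 without Chow replicate 2 and 0.66 without Chow replicate 3, and neither passed (adjusted p = 0.698 and 0.179).

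Among the plasma remodelling genes, Pltp (ENSMUSG00000017754, GRCm38 chr2:164839518-164857711, minus strand) had the largest estimate. This phospholipid transfer protein was at 79.7, 102, 93.0, 45.9 and 50.2 CPM in Chow replicates 1 to 5 and at 55.7, 61.1, 30.3, 32.9 and 50.0 CPM in TM5614 replicates 1 to 5. Chow fell into 3 high and 2 lower libraries, and the lower 2 lay within the TM5614 range. The means were 74.1 ± 25.0 CPM (SD, n = 5) and 46.0 ± 13.8 CPM (SD, n = 5), with a log2 fold change of -0.69 (SE 0.26, 95% interval -1.26 to -0.12, edgeR adjusted p = 0.165). Without Chow replicate 2, the highest library, the log2 fold change was -0.56 (adjusted p = 0.185). Without TM5614 replicate 2, the highest of its group, it was -0.82 (adjusted p = 0.140). With the GC and length trend removed it was -0.51 (adjusted p = 0.193).

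Lcat (ENSMUSG00000035237, GRCm38 chr8:105939551-105943382, minus strand), the plasma cholesterol esterifying enzyme that the liver secretes, was at 579.9, 659, 526, 525 and 487 CPM in Chow replicates 1 to 5. It was at 498, 473, 428, 461 and 447 CPM in TM5614 replicates 1 to 5. In TM5614, 4 libraries lay below every Chow library, and replicate 1 lay just above the lowest of them. The log2 fold change was -0.27 (SE 0.11, 95% interval -0.50 to -0.04, edgeR adjusted p = 0.183). It was -0.21 without Chow replicate 2 (adjusted p = 0.126) and -0.06 with the GC and length trend removed (adjusted p = 0.820), so the estimate moved with that trend.

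Lipc (ENSMUSG00000032207, GRCm38 chr9:70798128-70952226, minus strand), which encodes hepatic lipase, was at 165, 184, 149.6, 114 and 131 CPM in Chow replicates 1 to 5 and at 174, 131, 133, 182 and 159 CPM in TM5614 replicates 1 to 5. All 5 TM5614 libraries lay within the Chow range. The log2 fold change was 0.07 (SE 0.15, 95% interval -0.25 to 0.39, edgeR adjusted p = 0.816).

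Scarb1 (ENSMUSG00000037936, GRCm38 chr5:125277087-125341094, minus strand), the HDL receptor gene, varied little. Chow replicates 1 to 5 were at 248, 239, 208, 254 and 207 CPM and TM5614 replicates 1 to 5 at 249.7, 254, 215, 258 and 229 CPM. The libraries overlapped nearly throughout, with a log2 fold change of 0.06 (SE 0.10, 95% interval -0.16 to 0.29, edgeR adjusted p = 0.761). The coefficient of variation was 9.72% in Chow, the lowest of the 10 genes, and 7.61% in TM5614, where Lcat was lower at 5.69%. Stard4 had 37.3% and 28.6%, and Abca1 36.8% and 10.9%.

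Within libraries, Lcat and Pltp were compared with Lipc. Lcat had 3.51 to 4.59 counts per Lipc count in Chow and 2.53 to 3.61 in TM5614, a log2 ratio 0.34 lower in TM5614 (95% interval -0.60 to -0.07, exact two-sided permutation p = 0.0317, adjusted p = 0.0952). Pltp had 0.384 to 0.622 counts per Lipc count in Chow and 0.181 to 0.467 in TM5614, a log2 ratio 0.75 lower (95% interval -1.37 to -0.13, exact permutation p = 0.0238, adjusted p = 0.0952). Neither passed after adjustment over the 6 pairs compared, where the smallest p that 5 against 5 libraries allow is 0.00794. TM5614 replicate 2 had the highest ratio of its group for both pairs. In the exact permutation test without it the adjusted p-values were 0.0238 for each, at log2 differences of -0.41 for Lcat and -0.92 for Pltp. The Abca1 to Abcg5 difference was then 0.89 (adjusted p = 0.0317). That fit kept Chow replicate 2, whose Abca1 to Abcg5 ratio of 0.608 was the lowest of all libraries. The fit without Chow replicate 2, in which that pair did not pass, is given above. The ratios were not corrected for the GC and length trend. In Chow replicate 2 that trend put Lcat at 0.80, Pltp at 0.61 and Lipc at 0.12, and Abca1 at -0.68 and Abcg5 at 0.18, on the log2 scale.

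Levels of different genes were compared on the FPKM scale, which divides counts by gene length. Lcat was highest, at 403 ± 49.1 FPKM (SD, n = 5) in Chow and 334 ± 18.5 FPKM in TM5614, above every other gene in every library. Lipc at 76.5 ± 14.3 FPKM and Scarb1 at 73.7 ± 7.13 FPKM in Chow overlapped each other and both lay above Abcg5 at 47.0 ± 6.96 FPKM. Pltp (40.6 ± 13.8 FPKM), Abcg8 (31.9 ± 5.76 FPKM), Stard4 (21.5 ± 8.02 FPKM), Soat2 (16.8 ± 3.17 FPKM) and Abca1 (14.5 ± 5.32 FPKM) followed, each overlapping its neighbours. Abcg1 was last at 0.821 ± 0.202 FPKM, below every other gene in every library.

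In TM5614 the first 4 and the last were the same genes, in the same order. Abca1 was seventh at 17.0 ± 1.92 FPKM, above Soat2 at 10.9 ± 1.11 FPKM without overlap in the group, while Stard4 stood ninth at 7.93 ± 2.32 FPKM and overlapped Soat2. In Chow those 3 genes overlapped, in the order Stard4, Soat2, Abca1.

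**Figure D4:**
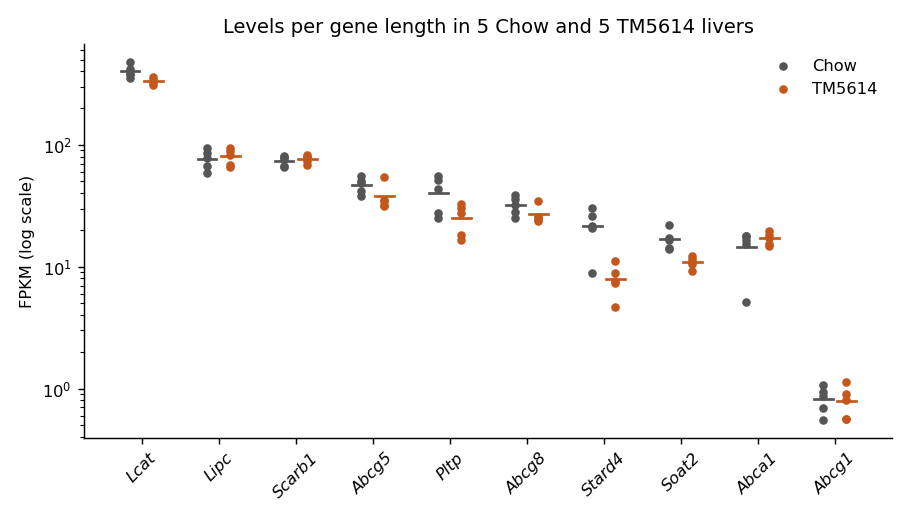
FPKM of the 10 genes on a log scale, 1 point per library and a bar at each group mean (n = 5), ordered by the Chow mean. Lcat lies above and Abcg1 below all others, and the Chow and TM5614 points separate for Soat2.

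The 10 genes were read beside other genes of cholesterol handling. Of 21 SREBP2 targets and regulators measured and tested, 16 fell, 1 rose and 4 did not pass the threshold, with a median log2 fold change of -1.51, and Stard4 at -1.43 lay near that median. Among the lower genes of lowest p were Fdft1 (-1.54, SE 0.15, edgeR adjusted p = 0.00034), Fdps (-2.99, SE 0.33), Msmo1 (-2.70, SE 0.31) and Dhcr7 (-1.27, SE 0.15), all enzymes of sterol synthesis, the last 3 with adjusted p-values of 0.00049 to 0.000676. Insig2, which holds SREBPs in the endoplasmic reticulum, rose by 1.76 (SE 0.20, adjusted p = 0.000549). Groups did not overlap in 18 of the 21 genes, against 8.93% of all genes tested. These 5 genes, named for their low p, were among the 18.

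Of 14 LXR and RXR receptors and other LXR targets tested, 3 fell, none rose and 11 did not pass, with a median of -0.32. Those 3 were Srebf1 (-1.84, SE 0.19, edgeR adjusted p = 0.000402), which encodes the lipogenic SREBP1, Scd1 (-1.19, SE 0.24, adjusted p = 0.0162), a fatty acid desaturase, and the receptor partner Rxra (-0.38, SE 0.09, adjusted p = 0.0417). Rxra passed in 9 of the 23 settings compared. Among the exporters that LXR induces, Abca1, Abcg1, Abcg5 and Abcg8, none passed in the edgeR fit with all libraries.

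Of 5 other esterification and ester hydrolysis genes tested, Ces1d fell by 0.76 (SE 0.16, edgeR adjusted p = 0.0189) and Ces1g fell by 1.09 (SE 0.17, adjusted p = 0.00411) on the log2 scale, and 3 did not pass. Both are carboxylesterases of a family of related genes, and whether reads were divided between these genes was not tested. The related ACAT1 gene Soat1 was at 2.95 CPM in Chow and 1.99 CPM in TM5614 on average and did not pass.

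Of 14 genes tested in a list of other ABC transporters and the phospholipid flippase Atp8b1, Abcb4, the phosphatidylcholine exporter of bile, rose by 0.91 (SE 0.17, edgeR adjusted p = 0.0085) and the other 13 did not pass (median of the list -0.06). Abcb4 lay at 229 to 408 CPM in Chow and 470.3 to 729.7 CPM in TM5614, without overlap, while Abcg5 and Abcg8, which export into the same bile, had estimates below 0. None of 13 HDL particle protein genes (median -0.21) and none of 18 other sterol transport genes (median 0.04) passed. The lowest adjusted p-values in those 2 lists were 0.106 and 0.122.

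**Figure D5:**
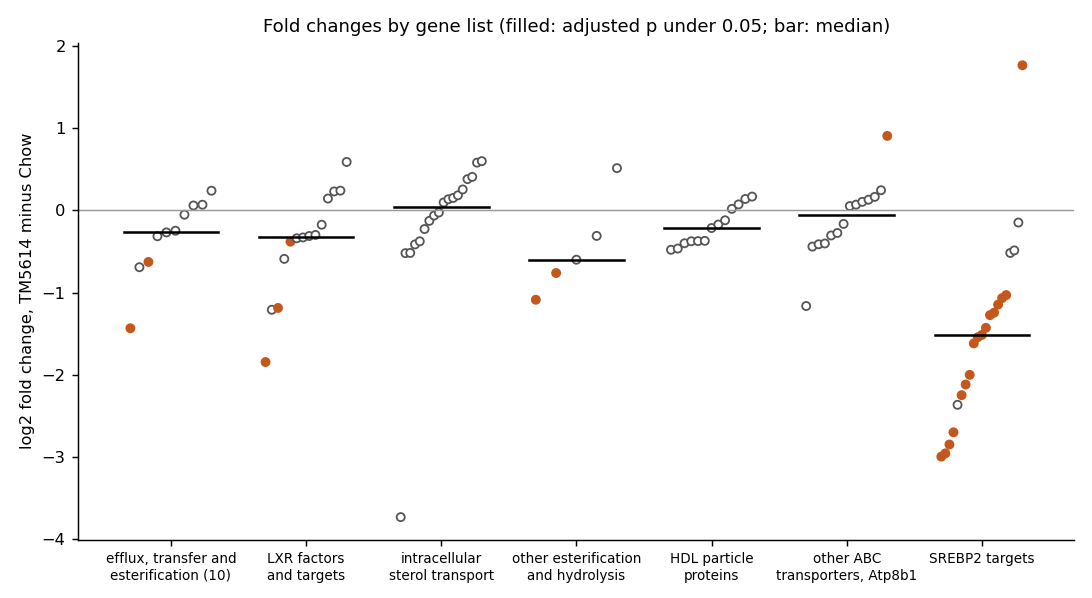
log2 fold change (TM5614 minus Chow) of every tested gene by list, filled where the adjusted p was under 0.05, with a bar at the list median. The median of the 10 genes was -0.26. The nearest list medians were -0.21 for HDL particle proteins and -0.32 for LXR factors and targets. The highest was 0.04 for sterol transport and the lowest -1.51 for SREBP2 targets.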

How the data were processed

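Livers of 10 mice were grouped as Chow and TM5614 by the sample titles, and columns were matched by mouse number. Per the study's methods and the submitters' processing notes, single-end reads were aligned to mm10 with STAR and tested with DESeq2 in RNA Express, and HOMER is also named in those notes. The annotation, the use of strand and tool versions are not given in the sources used here. What the authors deposited as counts are whole numbers of reads per symbol with no normalization. The FPKM values that the authors deposited are those counts over gene length and over a library factor equal to the median-of-ratios size factor (0% of values of 9035 genes were off by more than 1%). The authors' own table of fold changes and p-values, and regularised values, were not used.

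Genes were kept with filterByExpr (11092 of 24421), scaled with TMM and tested with edgeR 4.0.16 (quasi-likelihood, two-sided, no block, Benjamini-Hochberg, threshold 0.05) in R 4.3.3. Standard errors were derived from the fold change and its F statistic. The pair ratios used log2 counts with 0.5 added and an exact permutation test over libraries (SciPy 1.17.1). Coordinates are from GENCODE M21 on GRCm38, the assembly mm10 names, and promoter windows from RefSeq. The tests were run on simulated counts first. The members, the lists and the naming rule (all 10 members, and of each other list at most the 5 genes of lowest p in each direction past the threshold) were chosen with earlier results of these data known. A gene that the rule names is not reported here. The alternatives were DESeq2 1.42.0, limma-voom (limma 3.58.1), other scaling factors and filters, robust dispersion, a replicate block, a GC and length spline correction (5 degrees of freedom each), a threshold of 0.01, another pseudocount and the deposited FPKM for the ratios, and libraries left out. Nothing in the labels ties libraries to a batch, and p-values measure the spread between mice as labelled.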

Additional observations from a re-analysis of the deposited data

Results flagged for a closer look

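The CPM of the 10 genes in each group of 5 libraries gave 20 groups, in which a library was set against Dixon's 95% limit, and chance alone gives about 1 such value in 20 groups. In Chow, Abca1 in replicate 2 was far below the others, at 53.3 CPM, in the library whose values follow GC content and gene length. In TM5614, replicate 2 was far above the others for Abcg5, at 127.8 CPM, and for Abcg8, at 133.4 CPM, in the library that holds 3641 CPM of skeletal muscle markers. These 2 values should not be taken as independent, since Abcg5 had 0.781 to 1.01 counts for each Abcg8 count over all libraries. A correlation of the 2 genes was not tested.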

How the results depend on the processing

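Over 22 settings besides that of the report, Stard4 passed in 20 and Soat2 in 16, always lower in TM5614 (log2 fold changes of -1.64 to -1.28 and of -0.69 to -0.47). Leaving out 1 library in turn gave 0 to 2 members called, 0 without TM5614 replicate 3, and 235 to 1031 genes called, the highest without Chow replicate 2. Leaving out both replicates numbered 2 gave 4 members and 1230 genes, DESeq2 gave 900 genes, limma-voom 1386 genes, and an adjusted p of 0.01 gave 0 members and 184 genes. The smaller counts with a library left out come with fewer samples, and the cause of the larger ones was not tested. Estimates near 0 changed sign: Scarb1 was -0.0058 with the GC and length correction, Lipc ranged from -0.019 to 0.15 with 1 library left out, below 0 without Chow replicate 4, and Abcg1 ranged from -0.20 to 0.067, above 0 without Chow replicate 5, TM5614 replicate 3 or TM5614 replicate 4. With 1 library left out the log2 ratio differences were 0.43 to 0.89 for Abca1 to Abcg5, 0.13 to 0.66 for Abca1 to Abcg1, 0.57 to 1.16 for Soat2 to Stard4, -0.14 to -0.048 for Abcg5 to Abcg8, -0.41 to -0.27 for Lcat to Lipc and -0.92 to -0.58 for Pltp to Lipc, and the first and the last 2 of these passed after adjustment without TM5614 replicate 2 and in no other of these fits. With the replicate number as a block 2 members and 555 genes were called. The labels do not say that a number marks shared mice, and the same-numbered libraries' deviations from their group means correlated at 0.0316 to 0.318, with 3 of 10 libraries closest to their own number, so the numbers were not taken to pair the libraries. For Abcg1 the depth of 29 to 68 counts a library limits the estimate.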
